A study of Mus musculus with 4 samples.

Results

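The genes described here are the motile axoneme genes of the table, chosen by symbol: axonemal dynein chains (in their older Dnahc and Dnaic names), radial spoke, tektin and Spag genes, and single genes such as Hydin, Mns1, Armc4, Stk36, Foxj1 and a set of Ccdc and Lrrc genes. The rule matched 43 of 12814 genes. Of these, 40 have a known role in the axoneme, in its assembly or in its transcription, and 3 (Spag5, Spag7 and Spag9) matched by name alone. RNA-seq had been run on hair cells (HCs) and on the non-sensory cells of the same epithelia (ENSCs), both sorted from the cochlea and from the vestibular system of newborn mice, which gave 4 groups: cochlear HCs, cochlear ENSCs, vestibular HCs and vestibular ENSCs. All 4 groups came from the Atoh1/nGFP reporter mouse on a C57BL/6 background, untreated, with the inner ears of several mice pooled per sort. In this line an Atoh1 enhancer drives a nuclear green fluorescent protein, HCs were the cells with that protein and the epithelial surface protein CD326, and ENSCs were the cells with CD326 alone.

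The axoneme is the microtubule core of a cilium. In motile cilia, outer and inner dynein arms on the outer doublets generate sliding, the nexin links and radial spokes control it, and a central pair of tubules runs through the middle. Each HC bears a single cilium of this general build, the kinocilium, beside its actin-based stereocilia. Vestibular HCs keep the kinocilium, whereas cochlear HCs of mammals lose it as they mature. RFX factors and FOXJ1 are the known transcription factors of axoneme genes, and RFX factors bind an inverted repeat called the X-box.

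Each group had 1 library, so no value has a replicate error and no difference between groups could be tested. The values are a quantile-normalized signal per gene with a floor of 20, and a difference is counted here when the ratio of 2 signals was at least 3. Every library had the same column sum of 7830343 and the same median of 120, so depth could not be read from the table. The lowest signals of a library carried little information, because within a tied low range they followed the gene's level in the other libraries. This range ended at 24.25 in cochlear HCs, 22.75 in cochlear ENSCs, 30.5 in vestibular HCs and 20 in vestibular ENSCs, and a fold against a signal inside it is given as a lower bound. The table holds genes that passed a read minimum, so that a gene low in ENSCs was listed through its HC libraries. The HC markers Pou4f3 and Myo7a fitted the labels, with signals of 2198.75 and 1329.75 in cochlear HCs, 2489.5 and 1756.25 in vestibular HCs, and at most 55.25 in either ENSC library. Summed over 10 HC markers the signal was 37420, 1880, 32616 and 1467 in cochlear HCs, cochlear ENSCs, vestibular HCs and vestibular ENSCs. Of 8 neuronal markers 3 were in the table, and their summed signal was 5667, 171, 6682 and 60 in the same order, so that it was higher in HCs as were most axoneme genes. The endothelial marker Kdr, the single one of 4 in the table, was at most 29.75 in 3 libraries and 1461.75 in vestibular ENSCs. The sums in the same order were 16168, 98992, 13851 and 23518 for all 10 markers of supporting and other epithelial cells, and 7190, 8906, 1551 and 18532 for all 4 of epithelium. For 5 of 5 glial markers they were 757, 1284, 282 and 1874, and for 4 of 6 mesenchymal markers 114, 1742, 167 and 1557. Of the 10 markers of supporting and other epithelial cells, 4 were higher in vestibular HCs than in vestibular ENSCs, 5 lower and 1 equal. In the cochlea 2 were higher in HCs and 8 lower, and Epyc alone had 62028.5 in cochlear ENSCs. Sox2 was among those higher in vestibular HCs, with 3960.75 against 465.75 in vestibular ENSCs. The part of these cells in the results was not tested. None of the 10 markers of multiciliated epithelium looked for was in the table. Fewer cells of a type and less RNA per cell cannot be told apart in such sorted bulk samples.

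Short stretches of promoter are shown first, since a match to the X-box was found in many of these promoters. It was searched as the repeats GTTNCC and GGNAAC with 2 bases between them, a pattern that reads the same on both strands, allowing up to 2 mismatches, in the RefSeq promoter windows (GRCm38.p6, 250 bases before to 50 after the start). Of the 43 genes, 35 had a window. The 6 stretches below are from genes at least 3-fold higher in HCs of an organ and lie wholly upstream of the annotated gene. Capitals mark the X-box match, each is written 5′ to 3′ on the strand of the gene, and coordinates are those of an exact match in mm9. Spag16 lies at chr1:69873421-69873474 on the plus strand, Hydin at chr8:112790836-112790876 on the plus strand and Ccdc113 at chr8:98057966-98057999 on the plus strand, each with 1 mismatch. Dnahc10 lies at chr5:125205415-125205454 on the plus strand, Ccdc147 at chr19:48012123-48012176 on the plus strand and Tekt2 at chr4:126002995-126003048 on the minus strand, each with 2 mismatches.
Spag16: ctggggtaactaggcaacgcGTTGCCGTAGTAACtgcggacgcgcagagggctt
Hydin: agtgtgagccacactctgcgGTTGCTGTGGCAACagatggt
Ccdc113: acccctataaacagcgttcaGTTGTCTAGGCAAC
Dnahc10: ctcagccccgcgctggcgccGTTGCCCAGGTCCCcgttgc
Ccdc147: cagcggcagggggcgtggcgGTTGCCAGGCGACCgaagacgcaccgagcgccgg
Tekt2: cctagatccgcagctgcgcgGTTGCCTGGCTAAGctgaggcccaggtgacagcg

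Most axoneme genes had a higher signal in HCs than in ENSCs of the same organ, and the highest signal in vestibular HCs. In the vestibular system 35 of the 43 passed 3-fold in favour of HCs, against 13.8% of all genes, with a median log2 ratio of 3.28. In the cochlea 21 did so, against 8.39% of all genes, with a median log2 ratio of 1.52. None of the 43 was at least 3-fold lower in HCs of either organ, a difference reached by 14.3% of all genes in the vestibular system and 9.2% in the cochlea. Both organs passed 3-fold for 19 genes, against 4.99% of all genes, the vestibular pair but not the cochlear for 16 (8.76% of all genes), and the cochlear pair but not the vestibular for Foxj1 and Dnahc8 (3.39%). This split follows the threshold, and Spag1, for one, was 2.87-fold higher in cochlear HCs. The vestibular HC library held the highest signal for 40 of 43 genes, against 21.4% of all genes, and the exceptions were Dnahc8, Spag5 and Spag7. Some genes near the floor in every other library, such as Ccdc113 (64 in vestibular HCs) and Rsph3b (46), entered the table through vestibular HCs. For such genes the direction of any comparison with vestibular HCs was fixed by the read minimum. Of the calls, 19 in the vestibular system and 9 in the cochlea rested on an ENSC signal inside the tied range. In vestibular ENSCs this range is the floor itself, and 30 of the 43 genes had a signal of at most 30 there. Raising signals inside a tied range to its upper end left the counts at 35 and 21, but with the floor raised to 100 they were 21 (against 7.03% of all genes) and 7 (4.07%).

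**Figure D1:**
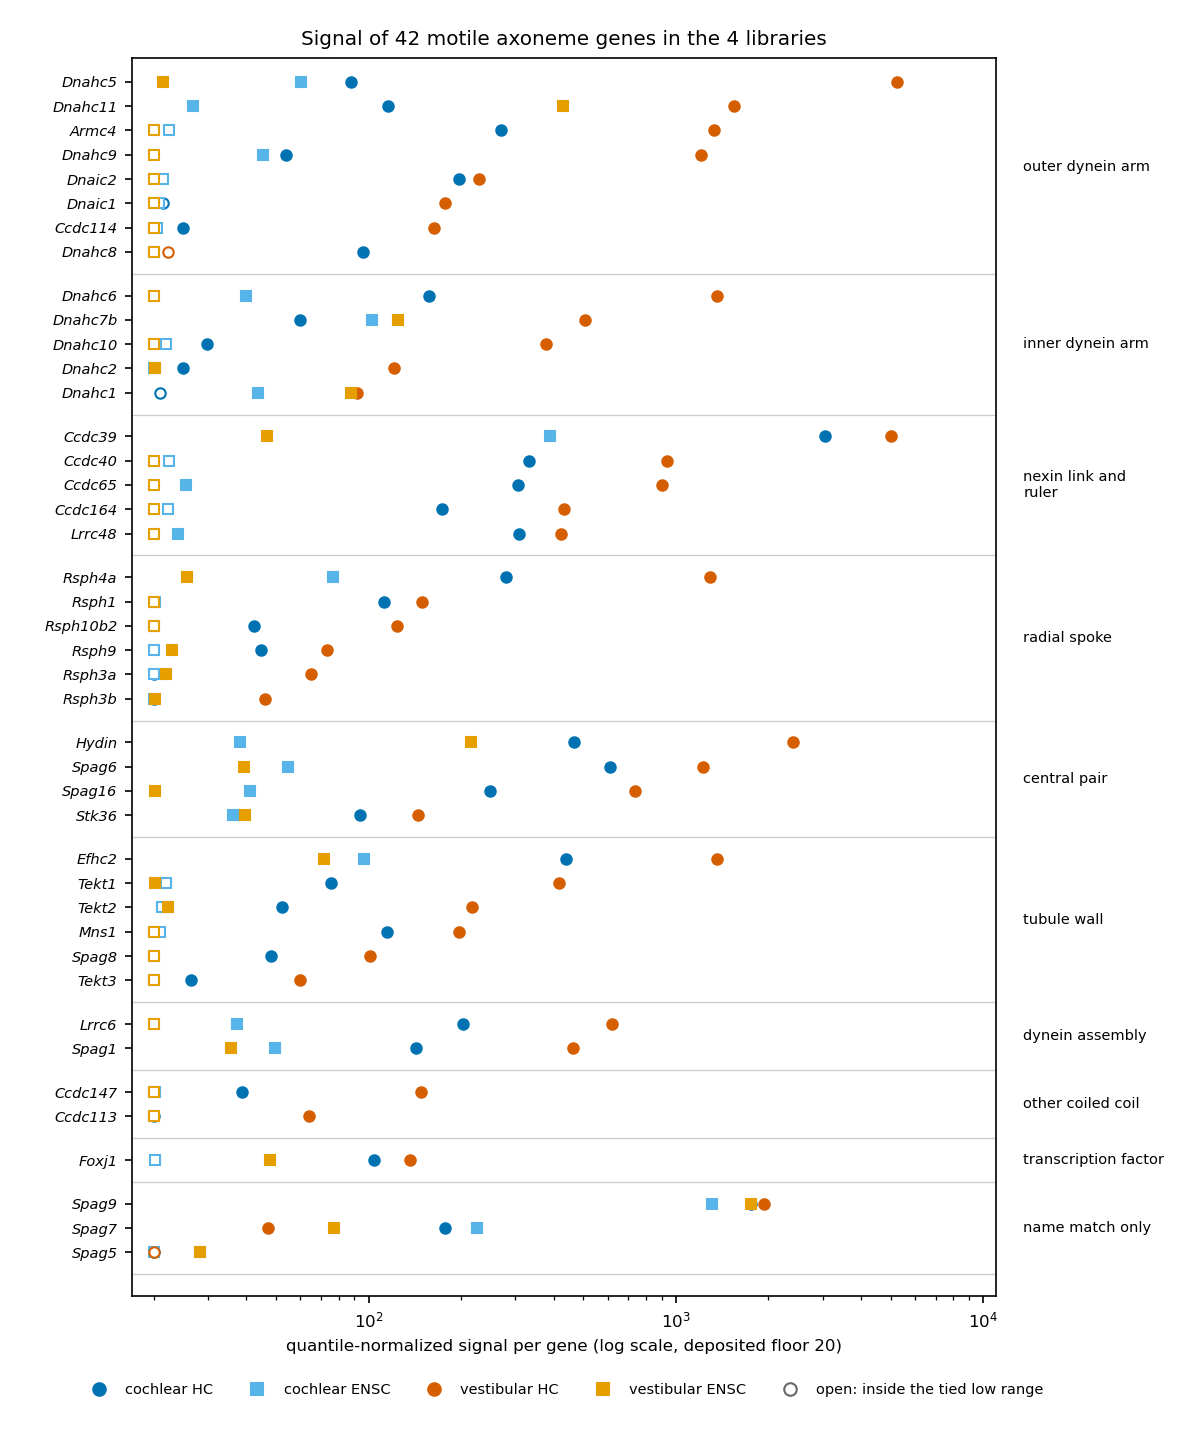
Signal of 42 of the 43 genes (log axis) in the 4 libraries, grouped by part of the axoneme, 1 point per library and no error bars. Open symbols lie in the tied low range of their library, which holds 23 genes in cochlear ENSCs and 20 in vestibular ENSCs but 2 in vestibular HCs.

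The outer dynein arm carries the main motor of the beat, and its heavy chain Dnahc5 showed the widest gap between HCs of the organs among the 43 genes. Dnahc5, the outer arm heavy chain at chr15:28133507-28401800 on the plus strand, had a signal of 88 in cochlear HCs, 60.5 in cochlear ENSCs, 5255 in vestibular HCs and 21.5 in vestibular ENSCs. The vestibular HC signal was 244-fold that of vestibular ENSCs and 59.7-fold that of cochlear HCs, while cochlear HCs and ENSCs differed 1.45-fold. The 244-fold rests on an ENSC signal just above the floor of 20, so its size depends on the floor and is uncertain. Dnahc9, an outer arm partner of Dnahc5, had 53.75, 45.5, 1204 and 20 in the same order. It was thus at least 60.2-fold higher in vestibular HCs than in vestibular ENSCs and close to equal in both cochlear libraries. Exons of Dnahc9 overlap 495 bases of Gm12296 on the opposite strand. Dnahc11, the other partner chain, had 115.5 in cochlear HCs, 26.75 in cochlear ENSCs, 1548.5 in vestibular HCs and 428 in vestibular ENSCs. Unlike Dnahc5 and Dnahc9 it was well above the tied range in vestibular ENSCs, where it was 16-fold higher than in cochlear ENSCs. An exon of Dnahc11 overlaps 642 bases of Cdca7l on the opposite strand, and Cdca7l had 21.5, 115.25, 34.75 and 88 in the order used for Dnahc11. Dnahc8, known as an outer arm chain of sperm, ran the other way, with 95.75 in cochlear HCs and 20, 22.25 and 20 in cochlear ENSCs, vestibular HCs and vestibular ENSCs. The cochlear HC signal exceeded that of cochlear ENSCs by at least 4.21-fold and that of vestibular HCs by at least 3.14-fold.

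The smaller outer arm genes differed in how far cochlear HCs shared the vestibular signal. Dnaic2, an intermediate chain, had nearly the same signal in HCs of both organs, with 196.25 in cochlear HCs, 21.5 in cochlear ENSCs, 229 in vestibular HCs and 20 in vestibular ENSCs. Dnaic1, the other intermediate chain, had 21.5, 20.75, 176.75 and 20, and Ccdc114, of the docking complex, had 25, 20.5, 163 and 20. Both were therefore near the floor in every library other than vestibular HCs. Armc4, which is needed to dock the outer arms, had 270.5, 22.5, 1328.25 and 20. HCs exceeded ENSCs by at least 11.9-fold in cochlear and at least 66.4-fold in vestibular libraries, and the signal was 4.91-fold higher in vestibular than in cochlear HCs.

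Inner arm heavy chains shape the bend of the cilium. All were at least 3-fold higher in vestibular than in cochlear HCs, against 5.09% of all genes. Dnahc6 had a signal of 157 in cochlear HCs, 40 in cochlear ENSCs, 1359.25 in vestibular HCs and 20 in vestibular ENSCs, and was at least 68.0-fold higher in vestibular HCs than in vestibular ENSCs. Dnahc10 had 29.75, 22, 377.25 and 20, and Dnahc2 had 25, 20, 120.75 and 20.25. For these 2 genes the vestibular HC library alone was clearly above the low range. Exons of Dnahc2 overlap 312 bases of 6030455H03Rik on the opposite strand. Dnahc7b had 60, 103, 506.25 and 124.25, with its lower cochlear signal in HCs. Reads of Dnahc7b could be shared with near-identical copies of the gene, so its level is uncertain. Dnahc1 had 21, 43.75, 92 and 87.5, and was the inner arm gene with no 3-fold difference between HCs and ENSCs in either organ.

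Per kilobase of exon, which allows genes to be compared, Dnahc5 led the heavy chains in vestibular HCs with 336 units of signal, followed by Dnahc11 with 110, Dnahc6 with 103 and Dnahc9 with 75.3. Dnahc5 made up 47.5% of the summed signal per kilobase of the heavy chains above the tied range there. In cochlear HCs the order was different, with Dnahc6 at 11.9 units, Dnahc11 at 8.21 and Dnahc8 at 6.53. In vestibular ENSCs, where 4 of the 9 chains lay in the tied range and were left out of the sum, Dnahc11 made up 60.8%. The summed signal of the 9 heavy chains, tied values included, was 16.2-fold higher in vestibular than in cochlear HCs. For contrast, Dync2h1, the heavy chain of the dynein of intraflagellar transport, had signals of 2970.25 and 4121.5 in cochlear and vestibular HCs, and Dync1h1, the cytoplasmic dynein heavy chain, had 1871 and 2247.75.

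**Figure D2:**
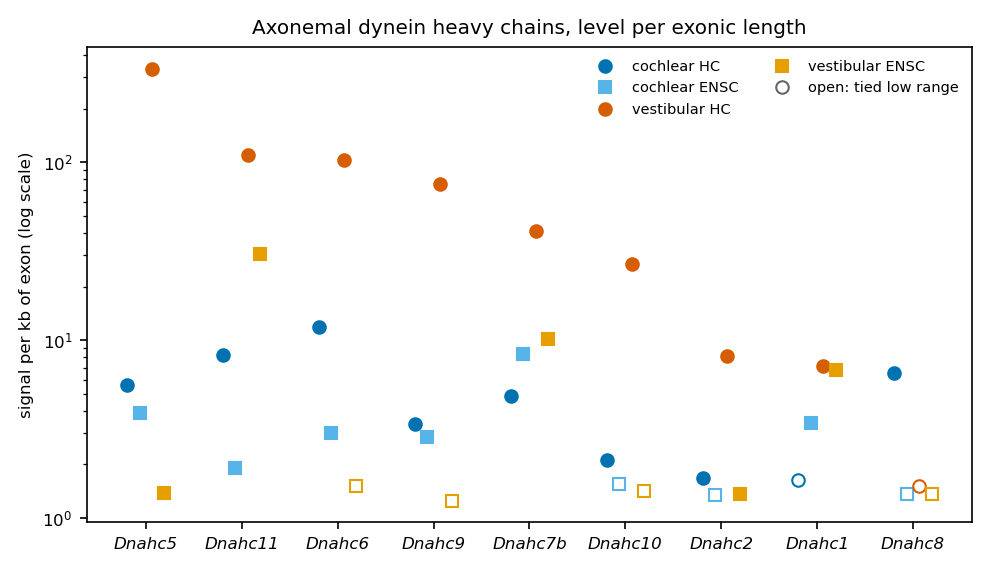
Signal per kilobase of exon (log axis) of the 9 axonemal dynein heavy chains in the 4 libraries, ordered by the vestibular HC level, with open symbols inside the tied low range. The vestibular HC point is the highest for each gene other than Dnahc8.

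The nexin link and ruler genes were higher in HCs of both organs. All 5 were at least 3-fold above ENSCs in each, against 4.99% of all genes. Ccdc39, part of the ruler that sets the spacing of the arms, had 3054.5 in cochlear HCs, 389.25 in cochlear ENSCs, 5005.75 in vestibular HCs and 46.75 in vestibular ENSCs. It was the highest of all 43 genes per kilobase in both HC libraries, at 434 and 711. Its exons overlap 1234 bases of Ttc14 on the opposite strand, and Ttc14 had 4100.75, 1293.75, 1895.75 and 485. Whether reads were counted by strand is not given in the sources used here. Ccdc40, the other ruler gene, had 333.75, 22.5, 935 and 20, and HCs exceeded ENSCs by at least 14.7-fold in the cochlea and at least 46.7-fold in vestibular libraries. The nexin link genes followed the same order, with ENSC signals in or near the tied range.
Ccdc65 had 307.5, 25.5, 900.25 and 20, Ccdc164 had 173, 22.25, 433.25 and 20, and Lrrc48 had 309.75, 24, 422.25 and 20. No gene of this group reached a 3-fold difference between HCs of the organs, and the closest was Ccdc65, 2.93-fold higher in vestibular HCs.

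Radial spokes relay signals from the central pair to the dynein arms. Of their 6 genes, 4 were at least 3-fold higher in vestibular HCs than ENSCs (13.8% of all genes) and 2 in the cochlea (8.39%). Rsph4a, of the spoke head, had 281 in cochlear HCs, 76.75 in cochlear ENSCs, 1286.75 in vestibular HCs and 25.75 in vestibular ENSCs, a log2 ratio of HCs to ENSCs of 5.64 for the vestibular and 1.87 for the cochlear pair. Rsph1, also of the spoke head, had 112, 20.25, 149.75 and 20, and was thus near equal in HCs of both organs. Rsph10b2 had 42.5, 20, 123.75 and 20, but 410 of its exonic bases are shared with Pms2 on the same strand. Rsph9, Rsph3a and Rsph3b stayed below 100 in every library, with vestibular HC signals from 46 to 73.25, and the last 2 are near-identical copies whose reads could be shared.

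All 4 central pair genes were at least 3-fold higher in vestibular HCs than in vestibular ENSCs (13.8% of all genes), and 3 in the cochlea (8.39%). Hydin, a giant protein of the central pair, had 467.5 in cochlear HCs, 38.25 in cochlear ENSCs, 2399.25 in vestibular HCs and 215.75 in vestibular ENSCs. Its ratio of HCs to ENSCs was thus similar in both organs, 12.2-fold and 11.1-fold, with vestibular HCs 5.13-fold above cochlear HCs and vestibular ENSCs 5.64-fold above cochlear ENSCs. Spag6 had 608.5, 54.5, 1226 and 39.25, and Spag16 had 248.75, 41, 736 and 20.25. Both were raised in HCs of each organ, Spag6 by 11.2-fold (cochlea) and 31.2-fold (vestibular system) and Spag16 by 6.07-fold and 36.3-fold. The vestibular ENSC signal of Spag16 was just above the floor, so the size of its 36.3-fold is uncertain. The table's Spag6 is the locus on chromosome 16 that RefSeq now calls Spag6l, and its near-identical copy in the mouse makes the level uncertain. Stk36, a kinase-like protein needed to build the central pair, had 93.5, 36.25, 145 and 39.75.

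All 7 genes of the tubule wall were at least 3-fold higher in vestibular HCs than in vestibular ENSCs (13.8% of all genes). In the cochlea 4 were higher by 3-fold (8.39% of all genes). Efhc2 had 437.5 in cochlear HCs, 96.5 in cochlear ENSCs, 1356 in vestibular HCs and 71.5 in vestibular ENSCs. This EF-hand protein of the doublet wall was thus above the tied range in all 4 libraries. The tektins, filaments along the doublets, were lower, with Tekt1 at 75.25, 22, 415.75 and 20.25 and Tekt2 at 52.25, 21.25, 216.75 and 22.25. Exons of Tekt2 overlap 396 bases of Gm12945 on the opposite strand. Tekt3 reached 60 in vestibular HCs, at least 3.0-fold the vestibular ENSC signal. Mns1 had 114.75, 21, 197 and 20, and Spag8 had 48, 20, 100.75 and 20. The dynein assembly factors were higher in HCs as well, with Lrrc6 at 203.25, 37.25, 618.75 and 20 and Spag1 at 142.75, 49.75, 463.75 and 35.75. Among the coiled coil genes of less certain place, Ccdc147 had 38.75, 20.25, 148.25 and 20, and Ccdc113 had 64 in vestibular HCs and 20 elsewhere.

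Foxj1, the forkhead factor of motile cilia, had a signal of 104.5 in cochlear HCs, 20.25 in cochlear ENSCs, 136 in vestibular HCs and 47.75 in vestibular ENSCs. HCs exceeded ENSCs by at least 4.59-fold for the cochlear pair and by 2.85-fold for the vestibular pair, and HCs of the organs differed 1.3-fold. With trends on length and GC content taken out, its vestibular log2 ratio was 2.94, past 3-fold, and the vestibular minus cochlear difference turned from -0.86 to 0.30. Of 15 other regulators looked for, 7 were in the table, and Rfx3 had the highest HC signals of them, with 5240, 2668, 7929.5 and 1863.25. Rfx2 reached 51.5 in vestibular HCs and was 20 in both cochlear libraries. None of the 3 genes matched by name alone passed 3-fold between HCs and ENSCs in either organ, nor did Dnahc1, Rsph3a and Rsph3b. Spag9, a kinase scaffold, had 1751.25, 1309, 1939 and 1750.75, Spag7 had 176.75, 225.75, 47 and 77, and Spag5, a mitotic spindle protein, was at most 28.25.

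**Figure D3:**
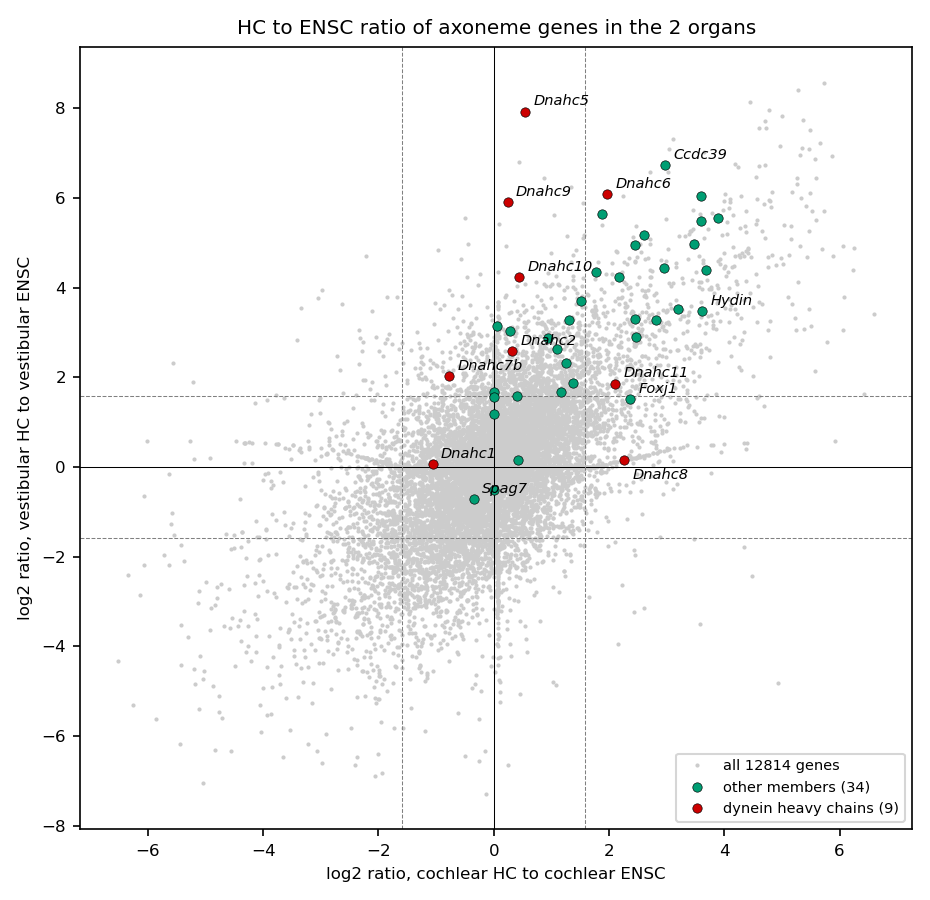
Log2 ratio of HCs to ENSCs for cochlear (x axis) and vestibular (y axis) libraries, with grey points for all 12814 genes, coloured points for the 43 axoneme genes and dashed lines at 3-fold. Dnahc5 and Dnahc9 lie at 7.93 and 5.91 on the y axis and near 0 on the x axis. Dnahc8 lies at 0.15 on the y axis and 2.26 on the x axis.

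Between the HC libraries, 21 of the 43 genes were at least 3-fold lower in cochlear HCs, against 5.09% of all genes, and 2 (Dnahc8 and Spag7) were at least 3-fold higher, against 4.21%. The median of this log2 ratio, cochlear over vestibular, was -1.57. After signals inside a tied range were raised to its upper end, 19 genes were lower, and with the floor raised to 100 or a pseudocount of 100 there were 13 (against 1.9% of all genes) and 9 (1.27%), with medians of -0.78 and -0.84. The dynein heavy chains had a median of -3.11, with 8 of 9 at least 3-fold lower in the cochlea. The nexin link and ruler genes had -1.32, the radial spoke genes -1.37, the central pair genes -1.29 and the tubule wall genes -1.18. The dynein assembly genes had -1.65 and the other coiled coil genes -1.81. Among the smaller outer arm genes, Dnaic1, Ccdc114 and Armc4 had -3.04, -2.7 and -2.3, and Dnaic2 had -0.22. Heavy chain genes are long, with 12359 to 15988 bases of exon. The 326 genes outside the list with at least 12359 bases had a median of 0.05, with 21 at least 3-fold lower and 11 at least 3-fold higher in cochlear HCs. Among the 43 genes the Spearman rho of this ratio with exonic length was -0.359. Over all genes above the floor in both HC libraries it was 0.0809. The part of length was not tested.

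**Figure D4:**
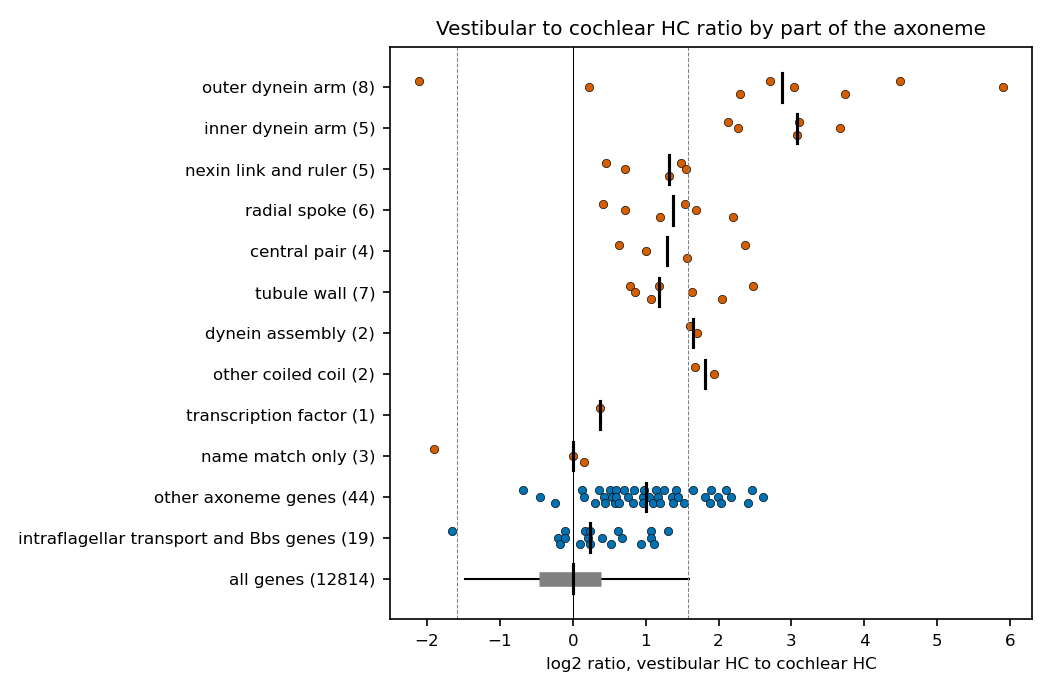
Log2 ratio of vestibular to cochlear HCs for each gene by part of the axoneme (orange), for other axoneme genes and for intraflagellar transport and Bbs genes (blue), with black bars at medians, dashed lines at 3-fold, and for all genes a line from the 5th to the 95th percentile and a grey bar over the middle quartiles. The dynein arm groups lie farthest to the right.

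Between the ENSC libraries the median log2 ratio, cochlear over vestibular, was 0.04, but 23 and 20 of the genes lay in the tied ranges of these libraries, so that an even level cannot be read from it. Above these ranges the genes differed in both directions, as with Rsph4a, 2.98-fold higher in cochlear ENSCs. Ccdc39 was at least 3-fold higher in cochlear ENSCs, against 7.8% of all genes, and Dnahc11 and Hydin were at least 3-fold lower, against 7.94%. These 3 genes all have exons that overlap another gene on the opposite strand, in Hydin 237 bases of Gm17466. Whether the overlaps bear on these differences was not tested. The ratio of HCs to ENSCs was at least 3-fold larger in the vestibular system for 21 genes, against 10.9% of all genes, and at least 3-fold smaller for Dnahc8, against 10.5%. The call for Dnahc8 was lost when tied signals were raised, with a floor of 50 or 100, and with a pseudocount of 20 or 100. These contrasts share libraries. In the vestibular system the log2 ratio of all genes fell with GC content, with a Spearman rho of -0.395 over the 10358 genes that exceeded the floor in HCs and ENSCs alike. The median GC content was 49.8% for the axoneme genes and 48.9% for all genes. With trends on length and GC content taken out, 37 genes passed 3-fold in vestibular HCs against ENSCs, with 14.7% of all genes. Foxj1, Rsph3a (log2 2.24) and Rsph3b (2.09) newly passed, and Dnahc7b (1.55) no longer did.

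Other axoneme genes, outside the name rule, were looked at beside these. Of 56 such genes looked for, 44 were in the table. Of these, 33 were at least 3-fold higher in vestibular HCs than ENSCs (13.8% of all genes) and 23 in the cochlea (8.39%). The median log2 ratios were 3.28 and 1.59. Tppp3 was the 1 gene at least 3-fold lower in vestibular HCs (14.3% of all genes), with 24.25 against 108.5 in vestibular ENSCs. Mlf1 had 3628.75, 289.5, 9695.75 and 74, and Iqub had 386.25, 22.5, 1214.5 and 20 in cochlear HCs, cochlear ENSCs, vestibular HCs and vestibular ENSCs, these and Tppp3 picked after their values were seen. Between HCs, 11 of the 44 were at least 3-fold lower in the cochlea (5.09% of all genes) and none higher (4.21%). The median was -1.01. The intraflagellar transport and Bbs genes serve cilia whether motile or not. Of these 19, 11 were at least 3-fold above ENSCs in vestibular HCs (13.8% of all genes) and 5 in cochlear HCs (8.39%). Between HCs their median was -0.24, none was lower by 3-fold in the cochlea (5.09% of all genes), and 1 was higher (4.21%). That gene was Ift20, with 1639.25 in cochlear and 519.5 in vestibular HCs.

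In the promoters, 18 of 35 genes (51.4%, 95% Wilson interval 35.6 to 67.0, for counting error only) held an X-box with up to 2 mismatches in a window, against 18.2% of 9337 genes of the table and 15.8% of 27025 RefSeq genes. The share was 68.6% for the other axoneme genes and 37.5% for the intraflagellar transport and Bbs genes. Counted by window, since some genes have several, 13.9% of 32851 RefSeq windows held one. With up to 1 mismatch the share was 17.1%, against 3.84% of the genes of the table, 37.1% of the other axoneme genes and 4 of 16 intraflagellar transport and Bbs genes. The single repeat GTTGCC, which overlaps the X-box pattern and was searched on both strands, was in 42.9% against 15.1%. The forkhead core GTAAACA, searched on both strands, was in 1 of 35 (2.86%), that of Tekt3, against 3.01%. Of the 18 matches, 16 had their centre within 100 bases of the start, against 51.9% of the 1699 genes of the table with a match, as in the stretches of Hydin, Ccdc113 and Dnahc10 printed above. The heavy chains Dnahc5, Dnahc6 and Dnahc9, with vestibular log2 ratios of HCs to ENSCs of 7.93, 6.09 and 5.91, had no match within 2 mismatches. The 18 genes with a match had a cochlear median of 1.21 and a vestibular median of 3.21 (log2 HC to ENSC), and the 17 without had 1.37 and 2.58.

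**Figure D5:**
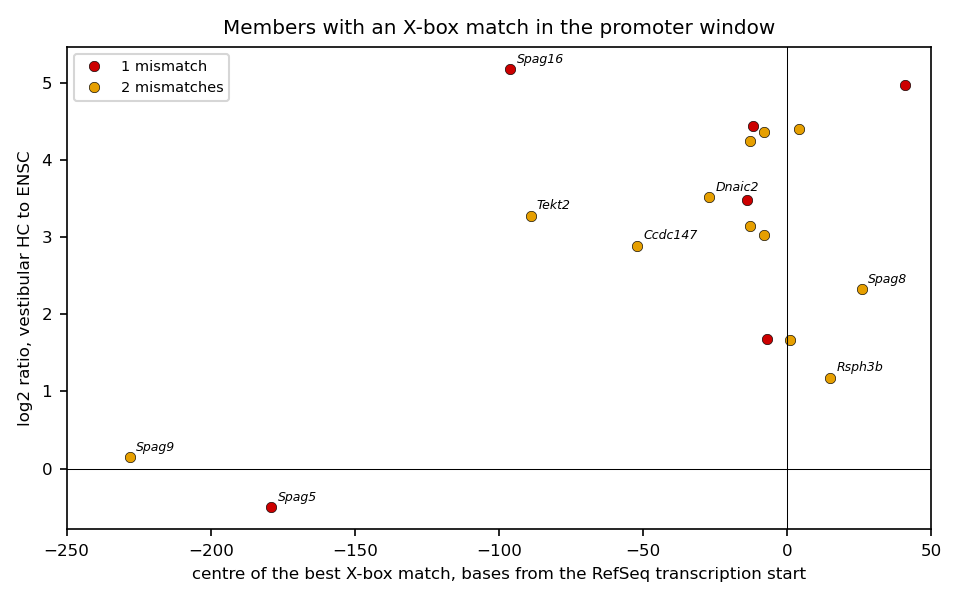
Position of the X-box match relative to the RefSeq start (x axis, bases) and log2 ratio of vestibular HCs to ENSCs (y axis) for the 18 genes with a match, coloured by mismatches, some of them named. Spag5 and Spag9, which matched the rule by name alone, have the most distant matches.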

How the data were processed

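Per the submitters' processing notes, reads were aligned to mm9 with TopHat and counted per gene with HTSeq (versions not given in the sources used here). The authors then quantile-normalized the 4 columns and set a floor, and deposited a signal per gene, which is neither a count nor divided by length. Quantile normalization hides differences in depth and in total RNA. Triplicates are named in the design text, whereas each group had 1 column here. Groups came from the source names and columns were matched by title.

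Log2 ratios were taken without a pseudocount and called at 3-fold. No test was run. Exonic length and GC content came from GENCODE for NCBIM37 (mm9), which held all 43 genes. Trends were fitted by lowess (fraction 0.3, 2 iterations; statsmodels 0.14.6, pandas 2.3.3). The ratio and trend steps were tested on simulated data. Genes were described with all 4 signals if their highest signal was at least 100 with a 3-fold difference in a contrast, if it was at least 500, or if they were heavy chains or Foxj1. The values of 1 member are not reported here. The genes, lists and thresholds were chosen with earlier results of these data known.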

Additional observations from a re-analysis of the deposited data

Results flagged for a closer look

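The ratio of HCs to ENSCs pointed in opposite directions in the organs for 2 genes, and the difference was not tested, since each group had 1 library. The log2 ratio of Dnahc7b was -0.78 for the cochlear and 2.03 for the vestibular pair. That of Dnahc1 was -1.06 for the cochlear pair, with an HC signal of 21 inside the tied low range, and 0.07 for the vestibular pair.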

How the results depend on the processing

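No paired analysis was possible because each group had 1 library. Low signals set the limits. With the floor raised to 50, median log2 ratios of HCs to ENSCs were 0.9 (cochlea) and 2.03 (vestibular system), 1 gene was higher in cochlear than vestibular HCs (2.3% of all genes), and 0 had a smaller ratio in the vestibular system (7.07%). With the floor raised to 100, genes higher in HCs numbered 7 (cochlea, median 0.0, 4.07% of all genes) and 21 (vestibular system, median 1.2, 7.03%), 0 were higher (1.47%) and 13 lower (1.9%) in cochlear than vestibular HCs (median -0.78), 1 was lower in cochlear ENSCs (4.03%), and 13 had a larger (4.82%) and 0 a smaller ratio (4.95%) in the vestibular system (median 0.82). With a pseudocount of 20 the vestibular median was 2.44, and 0 genes were higher in cochlear than vestibular HCs (2.29%) or had a smaller vestibular ratio (6.75%). With a pseudocount of 100 the same counts and medians were 7 (median 0.52, 3.07% of all genes) and 20 (1.43, 5.24%) for HCs against ENSCs, 0 (0.897%) and 9 (1.27%) between HCs (median -0.84), 1 lower in cochlear ENSCs (2.82%), and 9 (3.42%) and 0 (3.06%) between organs (median 0.88). Among genes reaching 100, 1 was higher in cochlear than vestibular HCs (4.57%) and 0 had a smaller vestibular ratio (11.6%). Length and GC correction gave 2 genes higher in cochlear ENSCs (7.01%). Tied ranges at their top gave 0 with a smaller vestibular ratio (9.02%). Without name matches, 1 was higher in cochlear than vestibular HCs (4.21%). At 2-fold, 1 gene was lower in cochlear HCs than ENSCs (17.4% of all genes), and 7 were higher (17.3%) and 4 lower (17.3%) in cochlear ENSCs. At 5-fold, 0 were higher (1.3%) and 10 lower (2.13%) in cochlear than vestibular HCs, and 13 had a larger (4.62%) and 0 a smaller vestibular ratio (3.89%). Without the 9 genes with exon overlap, chosen after seeing the data, 0 were higher (7.79%) and 0 lower (7.93%) in cochlear ENSCs. X-box shares were 17.1% with 1 mismatch (3.84% of all genes of the table), 0.0% with none (0.685%) and 77.1% with 1 to 3 bases between the repeats (36.2%). Apart from the settings themselves, the causes were not tested. Of 1470 values of single genes under the floors, pseudocounts, signal minimum, centring, length and GC correction and raised tied ranges, 1321 kept their side of 3-fold, 138 no longer passed and 11 newly passed. The sign changed for 27 values, each short of 3-fold as reported, and for 0 of those past it.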
